A study of Rattus norvegicus with 37 samples.

Results

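The livers of 4 rats whose spinal cord had been completely transected (TX SCI) were compared with those of 4 rats that had no injury (No SCI). These 8 samples were taken by their labels out of 37 liver samples in all, 22 of them in the same sample set, SCI + Exercise. All 8 rats were female Sprague-Dawley rats, 8 to 9 weeks old at the start by an estimate from body weight, and were kept in pairs of the same group in tiny cages, which restrict movement. TX SCI rats had a laminectomy and then a full cut of the cord at vertebra level T2, followed by antibiotic, the opioid buprenorphine and manual emptying of the bladder, and their livers were taken 8.5 weeks later. For No SCI rats the labels give no injury and mention no sham surgery, and their livers were taken at the age that matched 11.5 weeks after injury in the other groups. Injury, surgery and after-care, and the age at collection therefore cannot be told apart in this comparison. The set also holds 4 rats with a moderately severe contusion at T2 in tiny cages without exercise (CONT SCI), 5 with contusion and swimming (SWIM) and 5 with contusion and shallow water walking (SWW), all collected at 11.5 weeks according to the labels, although the study's text puts the exercised rats later.

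The liver receives sympathetic nerves that arise from the thoracic spinal cord and reach it through the coeliac ganglia, and parasympathetic nerves from the vagus, which does not pass through the cord. A complete cut at the upper thoracic level removes descending control from the brain over the sympathetic outflow below it, whereas a contusion usually spares some fibres. Sympathetic nerves are known to act on glucose release, lipid handling and immune cells in the liver, and the stated purpose of the TX SCI group was to look at the liver transcriptome with no descending input left.

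Polyadenylated RNA was sequenced and reads were counted per Ensembl gene. Between 29685630 and 30948754 reads were counted on genes in the TX SCI libraries and between 31524480 and 36761953 in the No SCI libraries, so that the 2 groups did not overlap in depth. Within each group, the libraries differed from one another by more than counting noise. The count table names genes by identifier, and no table used here pairs those identifiers with symbols. For that reason gene functions, pathway lists and cell type markers are not given, and the tissue label was not checked against marker genes.

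Across the whole transcriptome, an exact permutation test detected no difference between TX SCI and No SCI livers beyond the spread between rats. With 4 rats a group, this does not show that the groups are alike. The difference between the group means held 21.3% of the variance of regularized log (rlog) counts among the 8 rats, and an exact permutation test over all 70 ways of dividing them gave p = 0.114, where 0.0286 is the smallest p this design allows. The mean distance between a TX SCI and a No SCI rat was 36.97 ± 6.33 rlog units (SD, 16 pairs), against 36.5 ± 9.64 between TX SCI rats and 31.3 ± 6.92 between No SCI rats (6 pairs each). Among the 3 TX SCI pairs without rat 4 the mean was 29.2 ± 7.45. In both groups, 3 of the 4 rats had their nearest neighbour in their own group. The exceptions were TX SCI rat 4, whose nearest neighbour was No SCI rat 4, and No SCI rat 2, whose nearest neighbour was TX SCI rat 1.

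The leading axis of variation lay within the groups. Principal component 1 held 41.8% of the variance, and the difference between the groups made up 0.672% of it. TX SCI rats ranged from -17.2 to 25.9 on this axis and No SCI rats from -20.5 to 16.5, so each group spanned nearly the whole axis. Component 2, with 23.1% of the variance, held the TX SCI rats between 5.27 and 19.2 and the No SCI rats between -13.97 and -7.35. With more genes than rats, a component that parts 2 groups of 4 is a description of these livers, and no test was made on it.

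**Figure D1:**
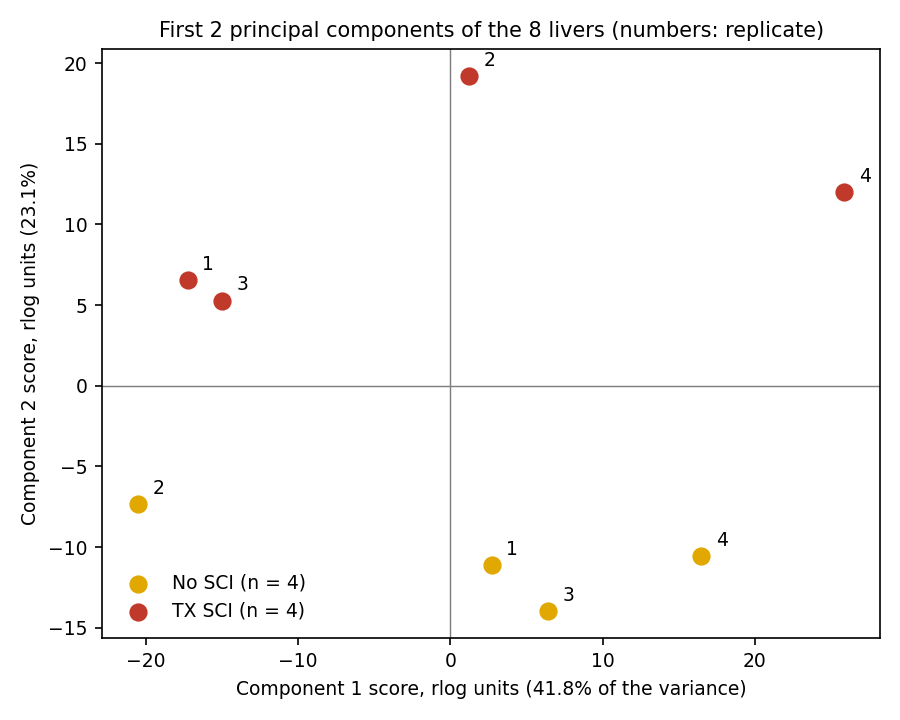
Scores of the 8 livers on principal components 1 and 2 of the rlog counts (axes in rlog units, share of the variance in brackets, 1 point per rat, numbered by replicate). Both groups spread along component 1, and all 4 TX SCI rats lie above 0 and all 4 No SCI rats below 0 on component 2.

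Few single genes passed the test. By the quasi-likelihood test of edgeR, with p-values adjusted after Benjamini and Hochberg, 8 of 12530 genes tested (0.0638%) had an adjusted p under 0.05. Of these, 3 were higher in TX SCI (0.0239% of the genes tested) and 5 were lower (0.0399%). At an unadjusted p under 0.05 there were 1510 genes, 12.1% of those tested, with 822 higher and 688 lower. That share was 13.4% between TX SCI and CONT SCI and 4.49% between CONT SCI and No SCI. The median log2 fold change over all genes was 0.02, and the median size of the change, without its sign, was 0.21. All 8 called genes had groups that did not overlap, against 8.21% of all genes tested. They were picked by a small p on the same 8 rats, so the lack of overlap is no separate support. Because the samples were whole liver, fewer cells of a type and less RNA per cell cannot be told apart for any of the 8 called genes.

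The count of called genes depended on the test and the samples in it. DESeq2 called 291 of 14308 genes tested on the same 8 rats (141 higher and 150 lower). An edgeR fit of all 22 rats of the set, which share one estimate of the spread, called 268 of 13059 (151 higher and 117 lower). Both larger lists held all 8 genes, and 170 genes were on both, which is 58.4% of the DESeq2 list and 63.4% of the other.

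**Figure D2:**
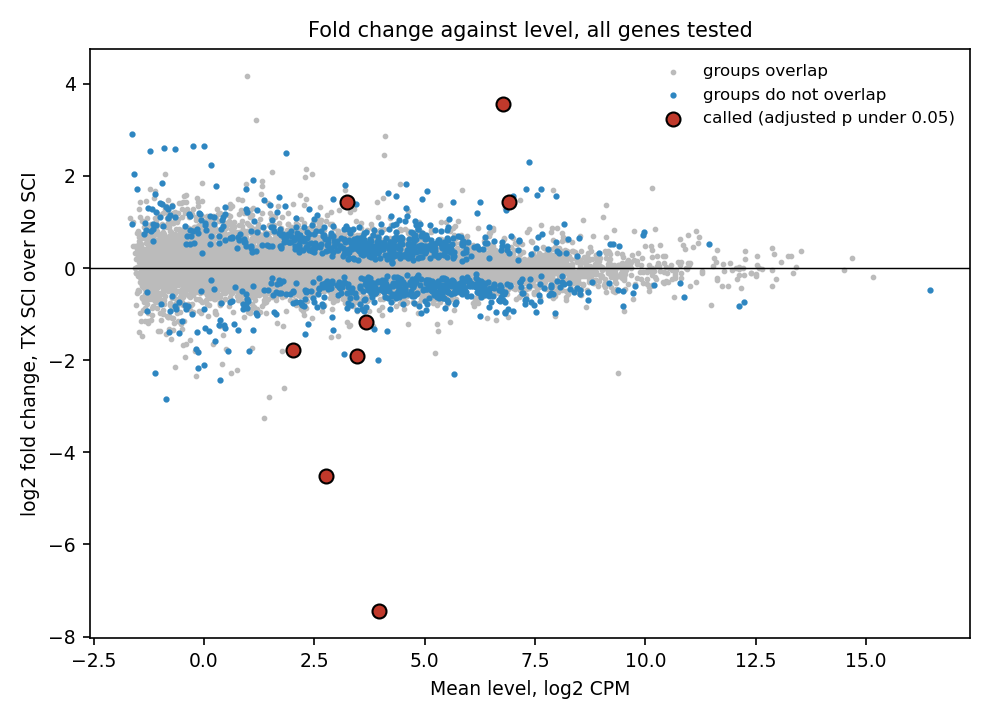
Log2 fold change of TX SCI over No SCI (vertical axis) against mean level in log2 CPM (counts scaled to a common library size, horizontal axis) for the 12530 genes tested, 1 point per gene. The 8 called genes, in red, have log2 changes from -7.45 to 3.55, while most genes lie close to 0.

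Of the 3 genes that were higher after transection, ENSRNOG00000021345 had the smallest p. Levels here are counts scaled to a common library size, with TMM normalization over all 37 libraries (normalized CPM). The 4 No SCI rats measured 15.5, 16.7, 17.4 and 16.7, and the 4 TX SCI rats 118, 168, 199 and 290. Every TX SCI rat was far above every No SCI rat, and the No SCI rats lay close together whereas the TX SCI rats covered a 2.46-fold range. The mean was 193 ± 72.3 in TX SCI and 16.6 ± 0.781 in No SCI (SD, n = 4 each). The log2 fold change was 3.55 with a standard error of 0.26, an 11.7-fold difference (edgeR, adjusted p = 0.000478). It stayed called when any 1 of the 8 rats was left out, with an adjusted p of at most 0.00543 in those fits.

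ENSRNOG00000012929 was the second gene that was higher. It measured 73.8, 53.6, 68.1 and 52.2 normalized CPM in the No SCI rats and 132, 193, 142 and 200 in the TX SCI rats. The groups did not overlap, and each spread over about the same relative range (1.41-fold in No SCI, 1.51-fold in TX SCI). The log2 fold change was 1.44 with a standard error of 0.19 (edgeR, adjusted p = 0.0397). Leaving out a single rat took the adjusted p of this gene above 0.05 in 7 of 8 fits, all but that without No SCI rat 2, with a highest value of 0.204, while the log2 fold change stayed between 1.35 and 1.52.

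The third gene that was higher was at a low level in both groups. Its values were 4.91, 3.37, 5.00 and 6.07 normalized CPM in No SCI and 11.3, 12.7, 13.5 and 14.4 in TX SCI, from 131 to 222 and from 403 to 445 counts. All 4 TX SCI rats were within 1.27-fold of each other. The log2 fold change was 1.43 with a standard error of 0.20 (edgeR, adjusted p = 0.0397), and the gene was called in 2 of the 8 fits that left out a rat, those without No SCI rat 2 and without No SCI rat 4.

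Among the 5 genes that were lower after transection, ENSRNOG00000033923 had the smallest p. The No SCI rats measured 15.8, 12.3, 9.19 and 12.2 normalized CPM and the TX SCI rats 0.914, 0.373, 0.335 and 0.499. In counts this was 285 to 524 in No SCI and 11 to 33 in TX SCI, so the gene was scarcely detected in every TX SCI rat and well measured in every No SCI rat. The log2 fold change was -4.51 with a standard error of 0.34, which is 22.8-fold lower (edgeR, adjusted p = 0.000478). It was called in all 8 fits that left out a rat, with an adjusted p of at most 0.00683.

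ENSRNOG00000018851 was the second gene that was lower, at 17.7, 17.4, 12.7 and 18.6 normalized CPM in No SCI and 4.21, 3.36, 3.56 and 6.34 in TX SCI. All 4 TX SCI rats lay well below the lowest No SCI rat. The log2 fold change was -1.92 with a standard error of 0.23 (edgeR, adjusted p = 0.0243). It was called in 4 of the 8 fits that left out a rat, and lost without TX SCI rat 1, 2 or 3 or without No SCI rat 1, where its adjusted p reached 0.124.

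The third gene that was lower differed widely between single rats. No SCI rats 1, 2 and 4 measured 31.2, 45.9 and 39.0 normalized CPM, and No SCI rat 3 measured 1.42. The TX SCI rats measured 0.111, 0.249, 0.0913 and 0.214, from 3 to 8 counts each. The groups did not overlap, but No SCI rat 3 lay much closer to the TX SCI rats than to its own group. The fitted log2 fold change was -7.45 with a standard error of 1.00 (edgeR, adjusted p = 0.0397), the largest change and the largest error of the 8 genes, and it was called in 3 of the 8 fits that left out a rat, those without No SCI rat 2, 3 or 4. With 3 to 8 counts in every TX SCI rat, under the minimum count of 10, it entered the test through the No SCI rats alone, and with no filter on low counts it missed the threshold (edgeR, adjusted p = 0.114). Over all its alternatives the adjusted p ran from 2.13e-11 in DESeq2 to 0.155 without a rat.

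The fourth and the fifth gene that were lower showed smaller, even differences. The fourth measured 18.4, 16.1, 16.6 and 15.7 normalized CPM in No SCI and 6.4, 6.0, 8.8 and 8.3 in TX SCI, a log2 fold change of -1.17 with a standard error of 0.16 (edgeR, adjusted p = 0.0397). The fifth measured 6.14, 5.05, 7.77 and 4.54 in No SCI and 1.7, 1.4, 2.2 and 1.5 in TX SCI, a log2 fold change of -1.79 with a standard error of 0.25 (edgeR, adjusted p = 0.0397). Neither had overlapping groups, and each was called in 2 of the 8 fits that left out a rat. The fifth had the lowest mean count of the 8 genes, 128, with 42 to 71 in TX SCI and 166 to 241 in No SCI.

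The same 8 genes were then read in the 14 contused rats of the set (CONT SCI, SWIM and SWW), which had no part in choosing them. These levels are a description, without a test. For the fourth gene that was lower, all 14 contused rats lay below every No SCI rat, between 5.80 and 13.9 normalized CPM, and 9 of them lay above every TX SCI rat. For the fifth, 13 of 14 lay below every No SCI rat and 11 above every TX SCI rat. For the third gene that was higher, 12 of 14 lay above every No SCI rat and 13 below every TX SCI rat. The contused rats thus lay mostly between the groups for these 3 of the 8 genes. All 8 were chosen because TX SCI and No SCI lay apart, which leaves room for other rats between them. A graded effect of injury is therefore not read from these levels and was not tested.

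The genes with the smallest p spread widely among the contused rats. ENSRNOG00000021345 measured 120.7 to 140.4 normalized CPM in the 4 CONT SCI rats, but 126, 13.96, 27.2, 116 and 15.7 in the SWIM rats and 154, 122, 251, 20.6 and 291 in the SWW rats. Within each exercised group, some rats lay near the No SCI level and others in or near the TX SCI range. Its range over the 14 rats, 4.33 on the log2 scale, was larger than that of 99.8% of the genes tested.

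ENSRNOG00000033923 measured 9.09 to 13.9 normalized CPM in the CONT SCI rats, all near the No SCI values. It measured 10.1, 8.34, 6.40, 9.11 and 1.08 in SWIM and 0.724, 10.0, 1.25, 19.9 and 7.83 in SWW. The low level seen in all 4 TX SCI rats was matched by 1 of the 14 contused rats, SWW rat 1, and SWIM rat 5 and SWW rat 3 lay just above it. Its log2 range over the 14 rats, 4.06, was larger than that of 99.7% of the genes tested.

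The third gene that was lower again spread widely. In CONT SCI it measured 0.0859, 64.7, 2.18 and 67.9 normalized CPM, with rat 3 between a very low and 2 high rats, while all 10 exercised rats had 41.3 or more. Its log2 range of 7.90 over the 14 rats was larger than that of 99.99% of the genes tested. ENSRNOG00000018851 lay at 20.3, 14, 6.53 and 7.42 in CONT SCI and between 5.09 and 26.2 in the exercised rats, and 12 of 14 contused rats lay above every TX SCI rat. ENSRNOG00000012929 lay between 42.0 and 134 in CONT SCI and between 82.4 and 287 in the exercised rats, with 7 of the 14 inside the TX SCI range.

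**Figure D3:**
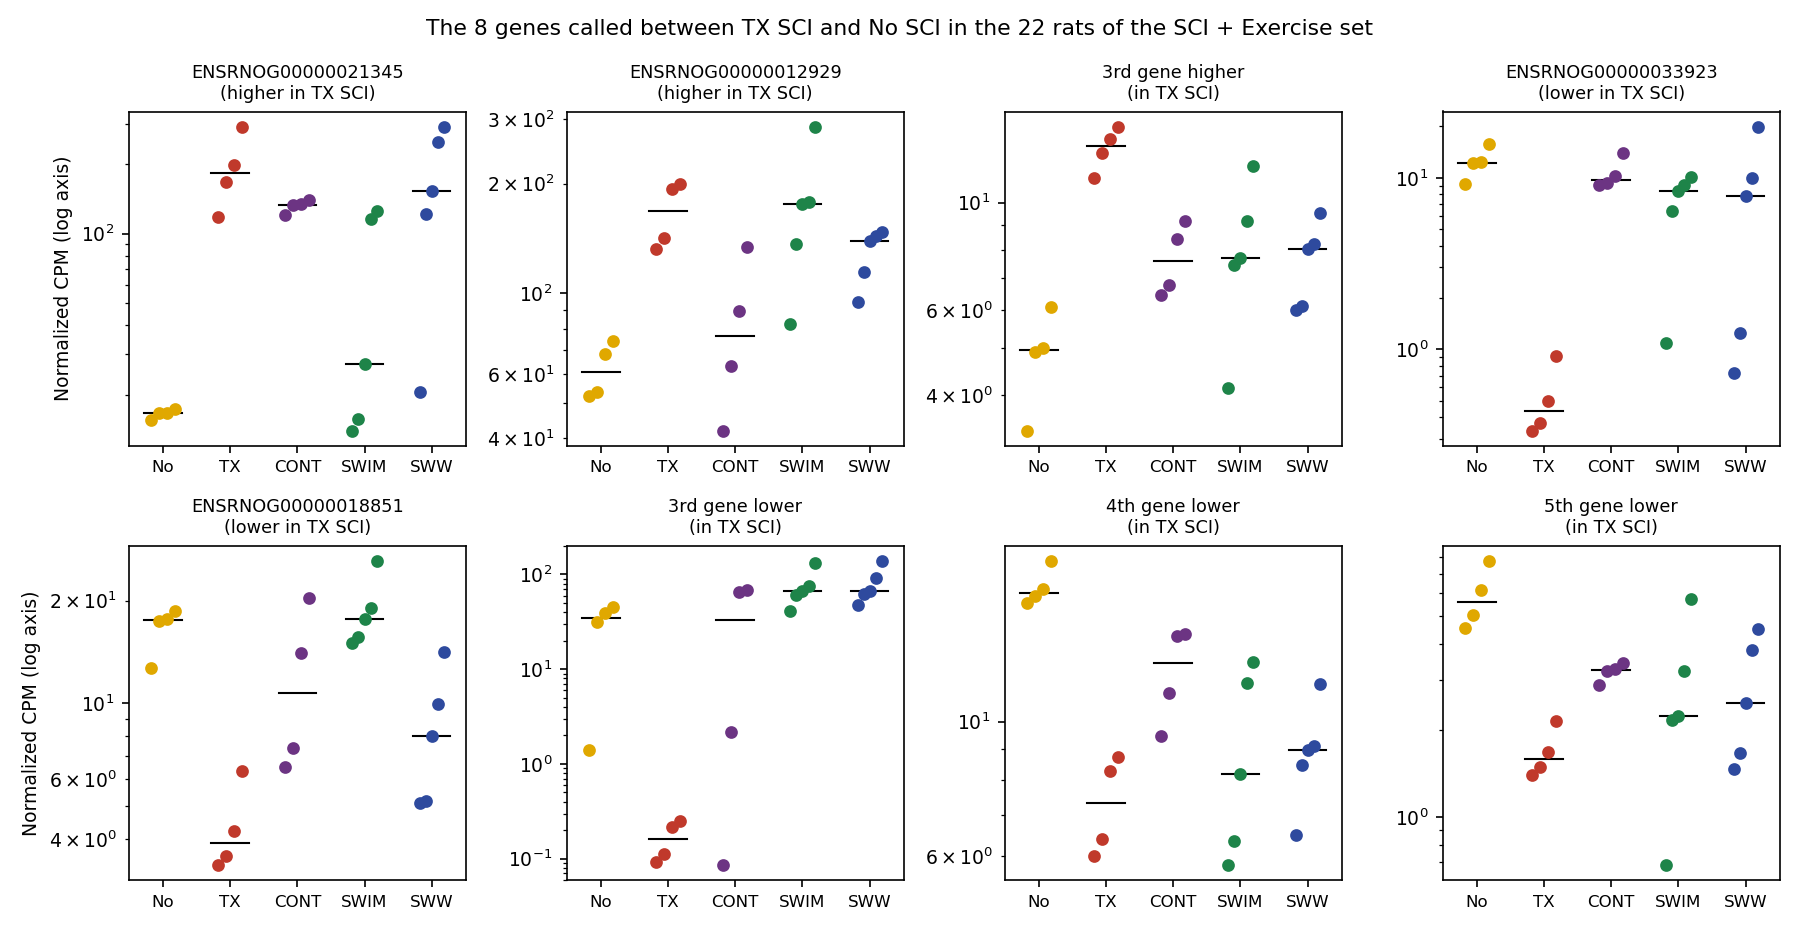
Normalized CPM on log axes for the 8 genes called between TX SCI and No SCI, 1 point per rat and a line at each group's median, in No SCI (n = 4), TX SCI (n = 4), CONT SCI (n = 4), SWIM (n = 5) and SWW (n = 5). No SCI and TX SCI do not overlap in any panel, and ENSRNOG00000021345, ENSRNOG00000033923 and the third gene that was lower range widely within some of the other groups.

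TX SCI and CONT SCI differ in the kind of injury, and also in time after injury, 8.5 against 11.5 weeks, which cannot be told apart from it. Between them, 4 of 12468 genes (0.0321%) were called, 2 higher and 2 lower in TX SCI. ENSRNOG00000033923 was the gene called here that was also called against No SCI, with a log2 fold change of -4.31 and a standard error of 0.32 (edgeR, adjusted p = 0.00102). Of the 8 genes, 6 others were tested and missed the threshold, with the sign they had against No SCI and log2 fold changes from -1.48 to 1.01. The third gene that was lower did not pass the filter on low counts in this pair of groups. Without TX SCI rat 4, 234 of 12617 genes were called between TX SCI and CONT SCI, of which 152 were higher and 82 lower.

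CONT SCI and No SCI were both sedentary and of matched age at collection, and 1 of 12482 genes (0.00801%) was called between them. That gene was ENSRNOG00000021345, with a log2 fold change of 2.99 and a standard error of 0.11 (edgeR, adjusted p = 3.57e-07). In the edgeR fit of all 22 rats its log2 fold change was 3.00 but the call was lost, with an adjusted p of 0.726, while it held in the other 12 alternatives, from 7.12e-185 in DESeq2 to 1.48e-05 without a rat. Against CONT SCI, TX SCI stood at a log2 fold change of 0.54 with a standard error of 0.22 for this gene (edgeR, unadjusted p = 0.0369, adjusted p = 0.333). The limits of 2 standard errors, 0.09 and 0.99, lay above 0, and the difference missed the threshold after adjustment over all genes. For ENSRNOG00000033923 the contrast of CONT SCI with No SCI was -0.22 with a standard error of 0.19 (edgeR, adjusted p = 0.998). These comparisons share rats (the TX SCI rats in one pair, the No SCI rats in another), so their values are set side by side and not correlated.

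**Figure D4:**
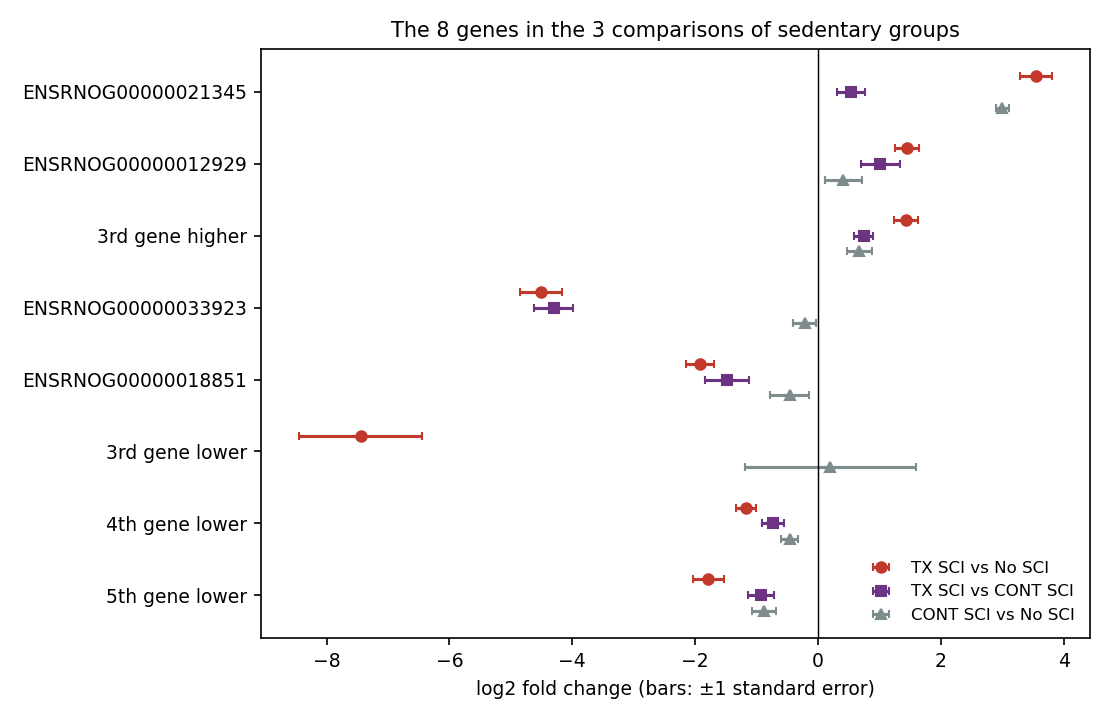
Log2 fold changes (horizontal axis, bars of 1 standard error, 4 rats a group) of the 8 genes in TX SCI over No SCI, TX SCI over CONT SCI and CONT SCI over No SCI. ENSRNOG00000021345 lies above No SCI in TX SCI and in CONT SCI (3.55 and 2.99, the latter not called in the fit of all 22 rats). ENSRNOG00000033923 is lower in TX SCI against both other groups (-4.51 and -4.31). The third gene lower was not tested in TX SCI over CONT SCI.

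The groups did not overlap in 1029 genes, the 8 called ones included, mostly by small amounts. In 527 genes (4.21% of those tested) every TX SCI rat was above every No SCI rat, and in 502 (4.01%) every TX SCI rat was below. The median log2 fold change was 0.55 for the former and -0.47 for the latter, and 80 and 40 of them differed by more than 2-fold. The share without overlap was 5.36% among the 1325 genes under 1 CPM and 9.90% among the 1768 genes over 64 CPM. In the latter, 54 genes had all TX SCI rats above and 121 had them below. Leaving out TX SCI rat 4 raised the total from 1029 to 1950 genes, and leaving out No SCI rat 2 raised it to 1851. A split of 3 against 4 rats parts more genes by its construction. No gene had at least 10 counts in each rat of one group and 0 in every rat of the other.

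Changes over 2-fold were more frequent at low levels. Of the 12530 genes, 338 differed by more than 2-fold in the fit. They made up 9.81% of the genes under 1 CPM, 3.39% of those from 1 to 8 CPM, 0.951% of those from 8 to 64 CPM and 1.36% of those over 64 CPM. Of the 8 called genes, 2 lay between 1 and 8 CPM, 4 between 8 and 64 CPM and 2 over 64 CPM.

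The gene with the most counts, the same one in all 8 libraries and chosen here after its values were seen, took a smaller share of the reads after transection. It held 9.39%, 10.4%, 11.1% and 9.63% of the counts in the No SCI rats and 7.86%, 7.42%, 7.87% and 7.22% in the TX SCI rats. The groups did not overlap, yet the gene missed the threshold, with a log2 fold change of -0.47 and a standard error of 0.16 (edgeR, adjusted p = 0.273). In CONT SCI it held 9.10% to 11.5%. Among the 50 genes with the most counts, 21 were higher and 29 lower in TX SCI, none was called by edgeR, and 6 had an unadjusted p under 0.05, a share like the 12.1% of all genes tested.

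Single rats had a part in these values. TX SCI rat 4 was 30.4 rlog units from the centre of its group, against 19.7 to 20.5 for the other 3 TX SCI rats. In 112 genes it lay more than 2-fold outside all 7 other rats, below them in 94, and it had counts for 14682 genes against 15463 to 15624 in the other TX SCI rats. TX SCI rat 2 followed with 30 such genes, and the other 6 rats had 3 to 14. In the study's alignment summary, the library of TX SCI rat 4 had the lowest share of uniquely mapped reads among the TX SCI and No SCI rats. RNA quality or the mix of cells in the liver piece of TX SCI rat 4 was not tested. Without TX SCI rat 4, 8 genes were again called between TX SCI and No SCI, 4 of them from the list with all rats, and the share of variance between the groups was 30.2% (exact permutation test, p = 0.0857).

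The comparison of the spread within the 2 groups depended on single rats. The standard deviation of log2 CPM was larger in TX SCI for 7775 genes, 62.1% of those tested, with a median of 0.29 in TX SCI, 0.25 in No SCI and 0.17 in CONT SCI. Without TX SCI rat 4 it was larger in TX SCI for 5201 genes, 41.5%, so the direction turned. The medians were then 0.21 in TX SCI and 0.25 in No SCI. Without No SCI rat 2 it was larger in TX SCI for 9054 genes, 72.3%, with medians of 0.29 in TX SCI and 0.19 in No SCI. No test was made of this spread.

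Leaving out other rats changed the list of called genes. Without No SCI rat 2, 23 of 12659 genes were called and all 8 genes were among them. Without No SCI rat 4, 14 of 12661 were called, with 6 of the 8 among them. Without TX SCI rat 1, 2 or 3 or No SCI rat 1, the called genes were ENSRNOG00000021345 and ENSRNOG00000033923.

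**Figure D5:**
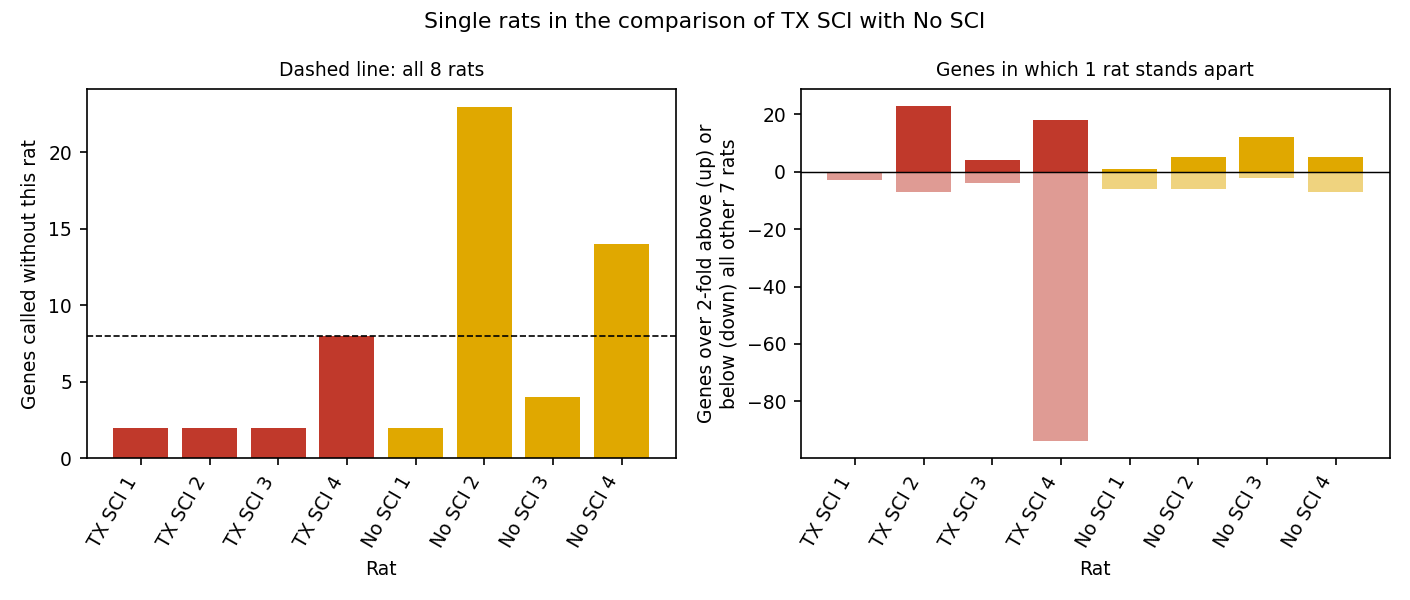
Left, the number of genes called between TX SCI and No SCI when the rat named on the horizontal axis is left out (dashed line, 8 genes with all rats). Right, the number of genes in which that rat lies more than 2-fold above (upward) or below (downward, paler) all 7 others. The counts on the left range from 2 to 23, and TX SCI rat 4 has the longest bar on the right.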

How the data were processed

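The authors aligned single-end reads of poly-A selected, strand-specific libraries to the rat genome Rn6 with STAR, counted reads per Ensembl gene on the reverse strand with HTSeq, removed mitochondrial genes and deposited raw counts. The submitters' processing notes name FastQC 0.10.1, HTSeq and the build rn6. The deposited table holds 24613 genes in 37 samples, and every sample column was used.

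Groups came from the sample labels. The 2 groups, the genes and lists, and the comparisons were chosen with earlier results of these data known. Identifiers were to be named through RefSeq genes (47357 entries), of which none matched the identifiers, so 25 gene lists and 12 marker lists could not be counted. By the rule for named genes, at most 2 identifiers per direction are printed, those with the smallest p among called genes that averaged 100 counts or more and whose groups did not overlap. The remaining called genes are given by their order of p.

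The count test was edgeR 4.0.16 under R 4.3.3 (TMM factors, genes kept by filterByExpr at a minimum count of 10 and a total of 15, robust quasi-likelihood fit, the 2 groups compared, Benjamini-Hochberg adjustment, threshold 0.05). Standard errors were derived from the log2 fold change and F. DESeq2 1.42.0 gave rlog counts and an alternative test. Separation was tested with an exact permutation test, one-sided for a larger share of the variance between the groups. Scripts were tested on simulated data. Replicates are separate rats, which were caged in pairs. The labels do not say which rats shared a cage. At these depths, the number of rats limits precision for all but the lowest genes. Other alternatives were RLE factors, all genes with a count kept, a single fit of the 5 groups, a block for the replicate number and each rat left out. Thinning of all libraries to the depth of the shallowest was added after seeing that the groups differed in depth.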

Additional observations from a re-analysis of the deposited data

Results flagged for a closer look

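In 52 groups of values (the 8 called genes in the 5 groups of the SCI + Exercise set, and 6 measures of the libraries in TX SCI and No SCI), 3 values stood far from the rest of their group by Dixon's test at the 95% level. Chance marks about 1 group in 20. TX SCI rat 4 had counts for 14682 genes, against 15463 to 15624 in the other TX SCI rats, and lay 30.4 rlog units from its group's centre, against 19.7 to 20.5. In No SCI rat 3, the 10 genes with the most counts held 25.6% of all counts, against 24.1% to 24.2% in the other No SCI rats.

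ENSRNOG00000033923 differed in a direct test, with a log2 fold change of -4.31 for TX SCI over CONT SCI (edgeR, adjusted p = 0.00102). Kind of injury and time after injury cannot be told apart here. TX SCI rats lay between 0.335 and 0.914 normalized CPM and CONT SCI rats between 9.09 and 13.9. In the SCI + In-Cage Activity set, contused rats in tiny cages, labelled 11.5 weeks, lay between 0.308 and 0.809. Uninjured rats of the SCI + In-Cage Activity set lay between 0.336 and 1.14.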

How the results depend on the processing

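For TX SCI against No SCI, 8 of 12530 genes were called. RLE normalization gave 9, no filter on low counts 12 of 17683 and libraries thinned to equal depth 10. DESeq2 gave 291 of 14308, the fit of all groups 268 of 13059, and leaving out 1 rat 2 to 23. For TX SCI against CONT SCI (4 genes) the counts were 363 of 14269 by DESeq2 and 135 of 13059 in the fit of all groups. Without 1 rat they were 1 to 234. For CONT SCI against No SCI (1 gene) the counts were 63 of 13295 by DESeq2 and 3 of 17670 without the filter. Without 1 rat they were 1 to 9 (9 without No SCI rat 2). In edgeR's fit of all groups 0 of 13059 genes were called, and 414 had an unadjusted p under 0.05. The number of genes without overlap between TX SCI and No SCI was 1029, which is 8.21% of the 12530 tested. It was 1019 with RLE, 1014 after thinning, and 1255 to 1950 without 1 rat. Without the filter it was 1174, where 17683 genes were tested. Over 14 alternatives, the 8 called genes gave 112 values, of which none changed direction and 39 missed the threshold. The separation share ranged from 18.9% to 30.2%, and no alternative took its permutation p under 0.05. TX SCI had the larger standard deviation in 7775 genes, and in 5201 to 9054 without 1 rat (5201 without TX SCI rat 4). The cause of these differences was not tested.

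Replicate numbers did not consistently pair the rats of TX SCI and No SCI. Deviations from the group means correlated at -0.12, -0.10, -0.16 and 0.47 for numbers 1 to 4, and only number 4 correlated best with its own number. Number 4 also did so for TX SCI with CONT SCI (0.26) and CONT SCI with No SCI (0.33). In the latter pair number 2 did as well (0.37). Whether rats of 1 number shared a condition was not tested. With a block for the replicate number, 4 genes were called for TX SCI against No SCI, 1 for TX SCI against CONT SCI and 13 for CONT SCI against No SCI.

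Groups of 4 rats, a depth that differed between the groups and the different age at collection limit the comparison. The counts of the lowest called genes in TX SCI, 3 to 8 and 11 to 33, leave their levels imprecise.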

Other observations

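The 15 rats of the other sample set, SCI + In-Cage Activity, had no part in the comparison, and its groups (contusion in large or tiny cages, and no injury in standard cages, 5 rats each) were sequenced to a lower depth. ENSRNOG00000021345 lay between 171 and 467 normalized CPM in all 15, the uninjured rats included, and so above every No SCI rat of the SCI + Exercise set, where the highest value was 17.4. ENSRNOG00000033923 lay between 0.220 and 1.14 in all 15, below every No SCI rat of the SCI + Exercise set, where the lowest was 9.19. Levels in or near the TX SCI range of these 2 genes were thus also present in uninjured rats of the other set. Contused rats in tiny cages without exercise were in both sets, and there ENSRNOG00000021345 lay between 286 and 372 in the SCI + In-Cage Activity set against 120.7 to 140.4 in CONT SCI, and ENSRNOG00000033923 between 0.308 and 0.809 against 9.09 to 13.9. The mean of ENSRNOG00000033923 was 0.539 in large, 0.529 in tiny and 0.615 in standard cages of the SCI + In-Cage Activity set. No test was made between the sets.

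The third gene that was lower after transection ranged from 0.129 to 204 normalized CPM over the same 15 rats. It measured 98.2, 48.3, 52.8, 0.358 and 73.9 in the 5 uninjured rats, so single uninjured rats in both sets were low. The fourth gene that was lower lay between 2.81 and 9.16 in all 15, below every No SCI rat of the SCI + Exercise set. ENSRNOG00000012929 lay between 118 and 289 in all 15, and the third gene that was higher between 6.14 and 15.9. Both were above every No SCI rat, where the highest values were 73.8 and 6.07. The fifth gene that was lower lay between 1.89 and 4.55 over the 15 rats, so the highest just reached the lowest No SCI value of 4.54. In the uninjured rats of the other set it lay between 2.57 and 4.14. ENSRNOG00000018851 ranged from 4.66 to 21.9 over the 15 rats.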
